A study of Mus musculus with 5 samples.

Results

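The cadherin and tight junction genes described here are Cdh1, Cdh3, Epcam, Cldn1, Cldn3, Cldn4, Cldn7, Ocln and Tjp1, 9 genes chosen by name out of 18193 genes that the array annotation pairs with a probe set of their own. They were read by 18 of the 34945 probe sets annotated to a single gene symbol, and all of these probe sets matched a mouse gene table under the same symbols. Transcript levels were measured in mouse B9 cells, a line from a cutaneous squamous cell carcinoma, on 5 Affymetrix 3' expression arrays: 2 from cells given 1 µM vemurafenib (PLX4032), 2 from cells given 1 µM PLX7904 and 1 from cells given 0.2% DMSO as vehicle, all harvested at 17 h. All groups share the genotype HRAS-Q61L, which keeps HRAS, an activator of the RAF kinases, switched on. Vemurafenib blocks mutant BRAF but can activate the MAPK pathway where RAS is mutant, an effect that so-called paradox breakers such as PLX7904 were designed to avoid. Because the labels call the arrays biological replicates of this line and do not say which came from separate cultures, p-values here speak only of array-to-array spread. DMSO was measured on a single array, which enters both contrasts with vehicle. The compounds were added as 2.4 µL of 5 mM stock to 12 mL of medium, a smaller volume share than 0.2%, and the labels do not name the solvent of the stocks. Whether treated and vehicle cultures held the same share of DMSO is therefore not known, which touches every difference from DMSO.

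Cadherins are calcium-dependent adhesion proteins of the adherens junction, which link neighbouring epithelial cells and are anchored inside the cell through catenins. Tight junctions lie apical to them and seal the space between cells. Their strands are built from claudins and occludin, and scaffold proteins such as ZO-1 tie the strands to actin. In the epidermis, tight junctions with claudin-1, claudin-4, occludin and ZO-1 form a barrier in the granular layer.

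The 5 arrays had median signals between 44.1 and 51.9, and log2 signals of any pair of arrays correlated at r = 0.980 to 0.990 over the 10852 genes tested. Signal is the MAS5 value of a probe set in arbitrary units, so that levels of different genes are not compared. Defining keratinocyte markers were bright on average over the groups, with a mean signal of 21753 for Krt14, 11787 for Krt5 and 5182 for Trp63, although Krt15 lay at 13.7. The sum over 9 keratinocyte markers was 85674 and 85324 with vemurafenib, 80837 and 79218 with PLX7904 and 75245 with DMSO, without overlap. Of the 8 tested, 3 passed as higher and 0 as lower with vemurafenib than with DMSO, and 3 as higher and 1 as lower than with PLX7904. Among all genes 5.43% were higher and 5.21% lower than with DMSO, and 6.43% and 6.87% than with PLX7904. The lower marker was Krt5 (log2 -0.23, limma adjusted p = 0.0175), a call that ended without either vemurafenib array. Of the markers of other cell types, 1 of 8 fibroblast genes reached the lowest mean signal tested of 47.4, as did 1 of 6 endothelial, 2 of 6 melanocyte and 2 of 7 immune genes. Summed immune marker signals were 296 and 334 with vemurafenib, 299 and 309 with PLX7904 and 273 with DMSO. The fibroblast sum was 427 and 407 with vemurafenib, 209 and 260.1 with PLX7904 and 207 with DMSO. The fibroblast gene tested was Pdgfra, a receptor of platelet-derived growth factor. It passed as higher with vemurafenib than with DMSO (log2 1.53, limma adjusted p = 0.00327) and than with PLX7904 (0.86, 0.0166). Both calls ended when its probe sets were averaged (log2 0.83 and 0.82). The call against PLX7904 also ended without the filter on signal, vemurafenib replicate 1 or PLX7904 replicate 2. The collagen genes Col1a1, Col1a2 and Col3a1 lay at or below a mean of 26.7. The endothelial sum was 83.3 and 186 with vemurafenib, 135 and 262 with PLX7904 and 213 with DMSO. The melanocyte sum was 196 and 216 with vemurafenib, 212 and 247 with PLX7904 and 147 with DMSO. The immune, endothelial and melanocyte sums overlapped between the compounds, and the fibroblast sum did not. Pmel, a melanosome gene, read 85.5 and 82.8 with vemurafenib, 72.2 and 60.8 with PLX7904 and 12.4 with DMSO, and passed as higher with vemurafenib than with DMSO (log2 2.48, limma adjusted p = 0.00938). The part of these markers in the results was not tested, and in bulk RNA a change in the share of a cell type cannot be told apart from a change in RNA per cell.

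On the brightest probe set of each gene, Epcam and Cldn4 passed as higher with vemurafenib than with both other treatments. The dimmer Epcam probe set did not pass, and the Cldn4 call against DMSO ended when either vemurafenib array was left out. No cadherin, occludin or ZO-1 transcript passed the test in any comparison. Epcam, an adhesion glycoprotein of epithelial cells that binds claudin-7, was 1.51-fold higher with vemurafenib than with DMSO and 1.24-fold higher than with PLX7904. Cldn4, a sealing claudin, was 1.37-fold higher than with DMSO and 1.76-fold higher than with PLX7904. Of the 9 genes, 8 were bright enough to be tested, and 2 of these passed as higher and 0 as lower with vemurafenib than with DMSO (limma, Benjamini-Hochberg adjusted p under 0.05 over all genes). Over all genes tested, 5.43% passed as higher and 5.21% as lower, 10.6% in either direction. Against PLX7904, 2 of the 8 also passed as higher and 0 as lower, where 6.43% of all genes were higher and 6.87% lower. With PLX7904 against DMSO 0 of the 8 passed, as did 0 of all genes (0%), while 3 of the 8 and 722 of all genes had an unadjusted p under 0.05 in limma. Without limma's intensity trend, which sets a gene's prior variance by its brightness, 0 members passed in any comparison, and 43 and 35 of all genes passed for vemurafenib against DMSO and against PLX7904.

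**Figure D1:**
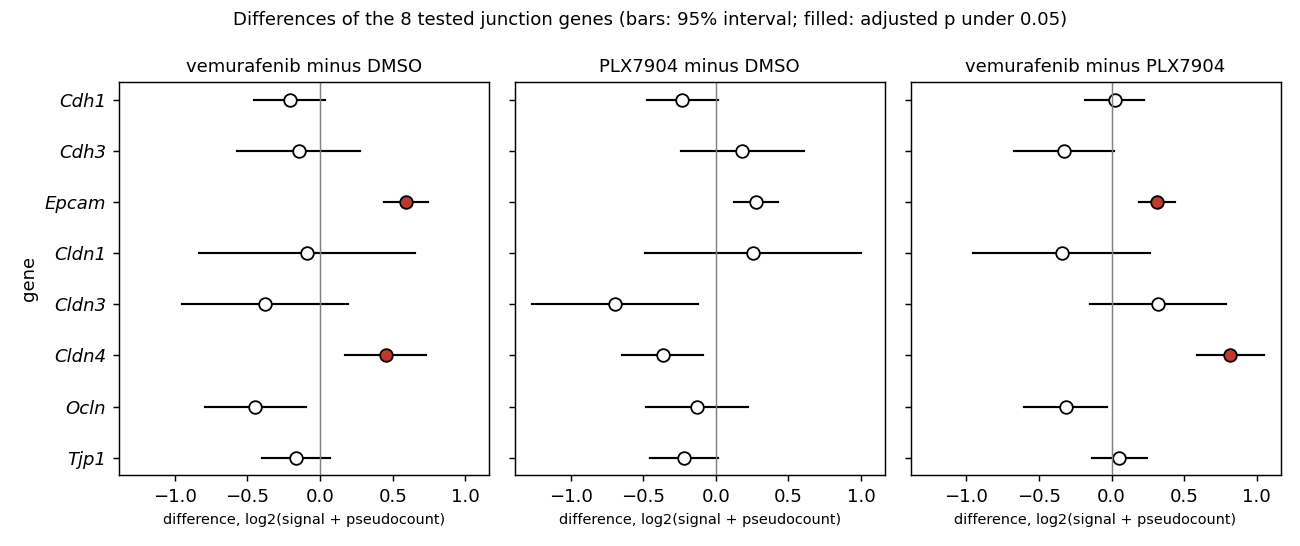
Differences between treatments for the 8 tested genes, in log2 units of signal plus pseudocount, from the fit to all 5 arrays. Points are estimates, bars are 95% intervals and filled points had an adjusted p under 0.05. Epcam and Cldn4 are filled in the panels of vemurafenib against DMSO and against PLX7904, and no gene is filled in the panel of PLX7904 against DMSO.

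Members lay on both sides of 0 in each comparison. The median log2 difference of the 8 tested genes was -0.16 between vemurafenib and DMSO, with 2 above 0, where the median of all genes was -0.05 with 42.2% above 0. Between PLX7904 and DMSO it was -0.17 with 3 above 0, where the median of all genes was -0.01. Between the compounds it was 0.04 with 5 above 0, where the median of all genes was -0.04.

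**Figure D2:**
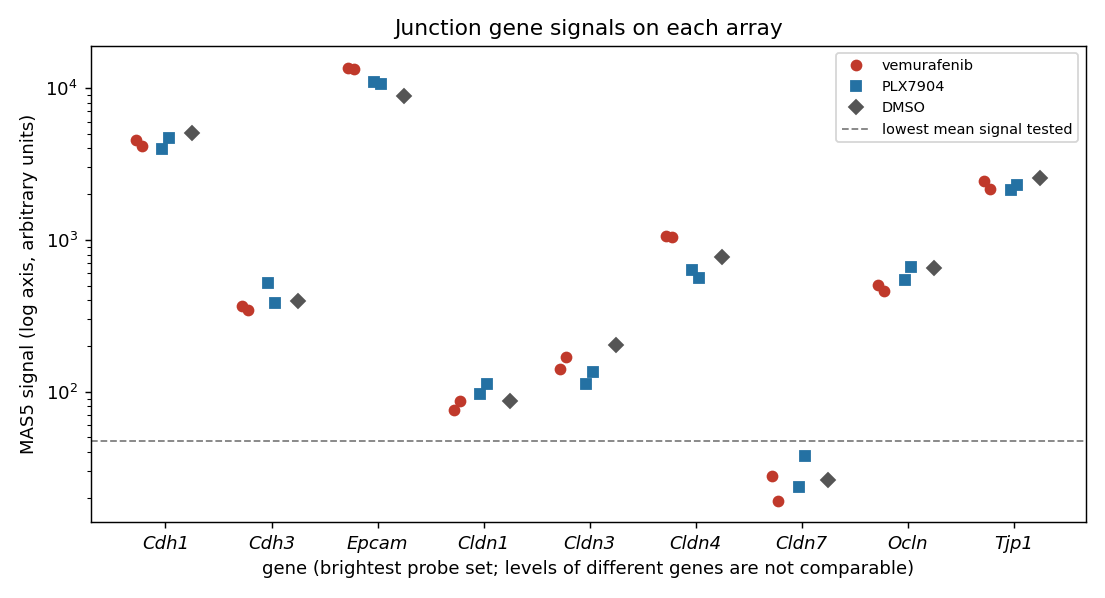
MAS5 signal on each array, on a log axis, for the brightest probe set of each of the 9 genes, with vemurafenib, PLX7904 and DMSO arrays from left to right within a gene. The vemurafenib arrays lie above all others for Epcam and Cldn4, and every Cldn7 value lies below the dashed line, the lowest mean signal tested.

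Epcam showed the pattern on its bright probe set alone. The bright probe set (1416579_a_at) read 13614 and 13242 with vemurafenib, 10956 and 10631 with PLX7904 and 8909 with DMSO. The 3 groups did not overlap, and replicates lay within 0.043 of each other on the log2 scale. The difference between vemurafenib and DMSO was 0.59 on the log2 scale (95% interval 0.44 to 0.74, limma adjusted p = 0.000549). That between vemurafenib and PLX7904 was 0.31 (0.19 to 0.44, limma adjusted p = 0.0050). PLX7904 lay 0.28 above DMSO (0.13 to 0.43) and did not pass (limma adjusted p = 0.362). In the brightest 10% of genes, to which Epcam belongs, the median of all differences was 0.10 between vemurafenib and DMSO and 0.07 between PLX7904 and DMSO.

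A dimmer probe set of Epcam (1447899_x_at), with a mean signal of 563 against 11044, read 497 and 567 with vemurafenib, 559 and 599 with PLX7904 and 578 with DMSO. Its groups overlapped between the compounds, and it did not differ by the test from DMSO (log2 -0.12, 95% interval -0.45 to 0.21) or from PLX7904 (-0.12, -0.39 to 0.15). The suffix x marks probes that may match unrelated transcripts, and the suffix a of the bright probe set marks probes shared by transcripts of a gene. Averaging both probe sets lowered the difference from DMSO to 0.23 and that from PLX7904 to 0.10, and both calls ended (limma adjusted p = 0.160 and 0.442).

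The promoter windows shown are those of Epcam and Cldn4, the genes that passed, and of Cldn3, which lies next to Cldn4 on the chromosome. Each runs over the 250 bases before the gene's start in RefSeq (build GRCm38.p6). Capitals mark matches to CAGGTG or its reverse complement CACCTG, the E-box that Snail and ZEB repressors bind at the E-cadherin promoter, and to TGANTCA, the AP-1 motif, which reads the same on both strands. The Epcam window, chr17:87635729-87635978 on the plus strand, holds 2 E-boxes and no AP-1 motif. The Cldn4 window, chr5:134946935-134947184 on the minus strand, holds 2 AP-1 motifs and 1 E-box. The Cldn3 window, chr5:134985964-134986213 on the plus strand, holds neither motif.
Epcam: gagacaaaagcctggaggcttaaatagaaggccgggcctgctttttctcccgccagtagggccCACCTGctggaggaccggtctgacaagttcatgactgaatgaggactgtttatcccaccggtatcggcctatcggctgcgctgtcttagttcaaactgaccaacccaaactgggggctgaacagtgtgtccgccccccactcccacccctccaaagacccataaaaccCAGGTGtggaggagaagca
Cldn4: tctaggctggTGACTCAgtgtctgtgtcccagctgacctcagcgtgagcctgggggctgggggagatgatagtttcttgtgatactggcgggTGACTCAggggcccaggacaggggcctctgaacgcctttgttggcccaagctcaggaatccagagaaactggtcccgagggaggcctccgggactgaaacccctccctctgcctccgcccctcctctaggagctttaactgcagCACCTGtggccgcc
Cldn3: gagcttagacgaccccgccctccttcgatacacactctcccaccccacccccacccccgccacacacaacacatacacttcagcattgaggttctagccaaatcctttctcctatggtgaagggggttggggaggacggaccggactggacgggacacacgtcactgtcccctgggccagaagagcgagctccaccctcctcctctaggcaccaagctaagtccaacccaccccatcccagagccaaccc

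The AP-1 motifs of Cldn4 begin 240 and 158 bases before its start, and no match to one motif overlaps a match to the other. Of 32851 such windows in the table, 6.75% hold at least 1 AP-1 motif and 0.338% hold 2 or more. At least 1 E-box is held by 17.2% and 2 or more by 2.06%. The table gave windows for 7 of the 9 genes: Epcam, Cldn1, Cldn3, Cldn4, Cldn7, Ocln and Tjp1. In the windows of Cldn1 and Tjp1 neither motif was found. Of the 2 windows each of Cldn7 and Ocln, 1 holds 2 E-boxes and the other none, with no AP-1 motif in any of them. These matches describe letters in a window and say nothing on whether a factor binds there.

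Cldn4 separated the compounds most clearly among the claudins tested. Its only probe set (1418283_at) read 1054 and 1049 with vemurafenib, 631 and 560.4 with PLX7904 and 767 with DMSO. The DMSO value lay between the compounds, above both PLX7904 arrays and below both vemurafenib arrays. Vemurafenib exceeded PLX7904 by 0.82 on the log2 scale (95% interval 0.59 to 1.05, limma adjusted p = 0.000769), and this difference passed under 16 of 17 alternatives. Vemurafenib exceeded DMSO by 0.45 (0.17 to 0.73, limma adjusted p = 0.0470). That call ended without vemurafenib replicate 1 (log2 0.45, limma adjusted p = 0.119) or replicate 2 (0.46, 0.0975), without the filter on signal (0.0854), with the mean of all probe sets (0.0840), and in the fit over all 19755 probe sets (0.0691). PLX7904 lay 0.37 below DMSO (-0.65 to -0.09) and did not pass (limma adjusted p = 0.578). The 2 differences from DMSO share the DMSO array.

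Cldn3, a sealing claudin whose gene neighbours Cldn4 with 0 annotated genes between them, was read by 4 dim probe sets that disagreed between the compounds. The brightest read 142 and 168 with vemurafenib, 112 and 136 with PLX7904 and 202 with DMSO. A second read 105 and 90.7 with vemurafenib, 117 and 175 with PLX7904 and 177 with DMSO. The remaining 2 sets ranged over 85.7 to 116 and 70.4 to 73.7 with vemurafenib, 96.4 to 102 and 103 to 127 with PLX7904, and read 136 and 109.6 with DMSO. Both vemurafenib arrays lay below DMSO on all 4 probe sets, by 0.38 to 0.84 on the log2 scale, and none of these differences passed. Against PLX7904 the brightest lay 0.32 above (95% interval -0.15 to 0.78), the second 0.54 below (-1.09 to 0.02) and the dimmest 0.65 below (-1.23 to -0.06), again with none passing. Of these intervals against PLX7904 only that of the dimmest leaves out 0, at an unadjusted p of 0.0333, and its adjusted p over all probe sets was 0.165 (limma). The third lay 0.006 above PLX7904 (-0.56 to 0.57). The brightest, which stands for the gene, and the third are of suffix x, whose probes may match unrelated transcripts. The second and the dimmest are of suffix a. Between PLX7904 and DMSO the brightest differed by -0.70 (-1.27 to -0.12) and did not pass (limma adjusted p = 0.624).

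Cldn1, the claudin of the epidermal barrier, was read by 4 dim probe sets, of which 2 reached the lowest mean signal tested. The brightest read 76.0 and 86.7 with vemurafenib, 96.5 and 112 with PLX7904 and 86.5 with DMSO. Vemurafenib lay below PLX7904 without overlap, by 0.34 on the log2 scale, and the interval of -0.95 to 0.26 held 0 (limma adjusted p = 0.469). Its difference between PLX7904 and DMSO was 0.25 (-0.49 to 1.00, limma adjusted p = 0.935). That between vemurafenib and DMSO, -0.09, was above 0 after quantile normalization, median centring or cyclic loess. The second read 27.0 and 61.8 with vemurafenib, 50.2 and 64.3 with PLX7904 and 42.1 with DMSO, so that its vemurafenib replicates spanned the DMSO value. The remaining 2 had mean signals of 14.6 and 5.05. Cldn7, a claudin found along the lateral membrane, read 27.7 and 19.2 with vemurafenib, 23.7 and 37.9 with PLX7904 and 26.2 with DMSO. It was too dim to be tested, its groups overlapped, and without detection calls these values do not say whether it exceeded background.

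The cadherins did not pass in any comparison. Cdh1, E-cadherin, read 4571 and 4131 with vemurafenib, 3934 and 4664 with PLX7904 and 5023 with DMSO. All 4 treated arrays lay below DMSO, by 0.21 on the log2 scale with vemurafenib (95% interval -0.45 to 0.04, limma adjusted p = 0.270) and by 0.23 with PLX7904 (-0.48 to 0.02, 0.767). Between the compounds Cdh1 overlapped, and the difference of 0.02 had an interval of -0.18 to 0.22. A difference between the compounds of more than 1.17-fold in either direction is outside that interval.

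Cdh3, P-cadherin of the basal epidermis and hair follicle, read 364 and 346 with vemurafenib, 522 and 383 with PLX7904 and 393 with DMSO. Vemurafenib lay below the other groups, 0.33 below PLX7904 on the log2 scale (95% interval -0.67 to 0.01, limma adjusted p = 0.201) and 0.15 below DMSO (-0.57 to 0.27, 0.671). PLX7904 lay 0.18 above DMSO (-0.24 to 0.60, limma adjusted p = 0.916), with replicates on both sides of it. The difference between vemurafenib and DMSO was 0.00296 with median centring. Without PLX7904 replicate 2 the difference between the compounds was -0.55 and passed (limma adjusted p = 0.0490). A second probe set of Cdh3, with a mean signal of 47.2 just under the lowest tested, read 35.1 and 45.0 with vemurafenib, 61.9 and 58.3 with PLX7904 and 41.5 with DMSO.

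Ocln, the strand protein occludin, lay lower with vemurafenib on both of its probe sets without passing. The brighter read 505 and 458 with vemurafenib, 540.5 and 666 with PLX7904 and 657 with DMSO. The dimmer read 119 and 163 with vemurafenib, 179 and 166 with PLX7904 and 250.1 with DMSO. Vemurafenib arrays lay below all others on both, although the gap on the dimmer one was narrow. The difference from DMSO was -0.45 on the brighter (95% interval -0.80 to -0.10, limma adjusted p = 0.103) and -0.83 on the dimmer (-1.39 to -0.27, limma adjusted p = 0.0812 over probe sets). That of the dimmer passed without vemurafenib replicate 2 (-1.05, limma adjusted p = 0.0122). Against PLX7904 the brighter lay 0.32 below (-0.60 to -0.03, limma adjusted p = 0.140). PLX7904 and DMSO differed by -0.13 on the brighter (-0.48 to 0.22, limma adjusted p = 0.931). Genes of this brightness, between the 25th and 50th percentile, had a median difference of -0.11 between vemurafenib and DMSO.

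Tjp1, the scaffold protein ZO-1, read 2428 and 2161 with vemurafenib, 2135 and 2284 with PLX7904 and 2569 with DMSO. As for Cdh1, the DMSO array lay above the other 4, and the compounds overlapped. The log2 difference was -0.17 between vemurafenib and DMSO (95% interval -0.40 to 0.07), -0.22 between PLX7904 and DMSO (-0.45 to 0.02) and 0.05 between the compounds (-0.14 to 0.24), and none passed.

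**Figure D3:**
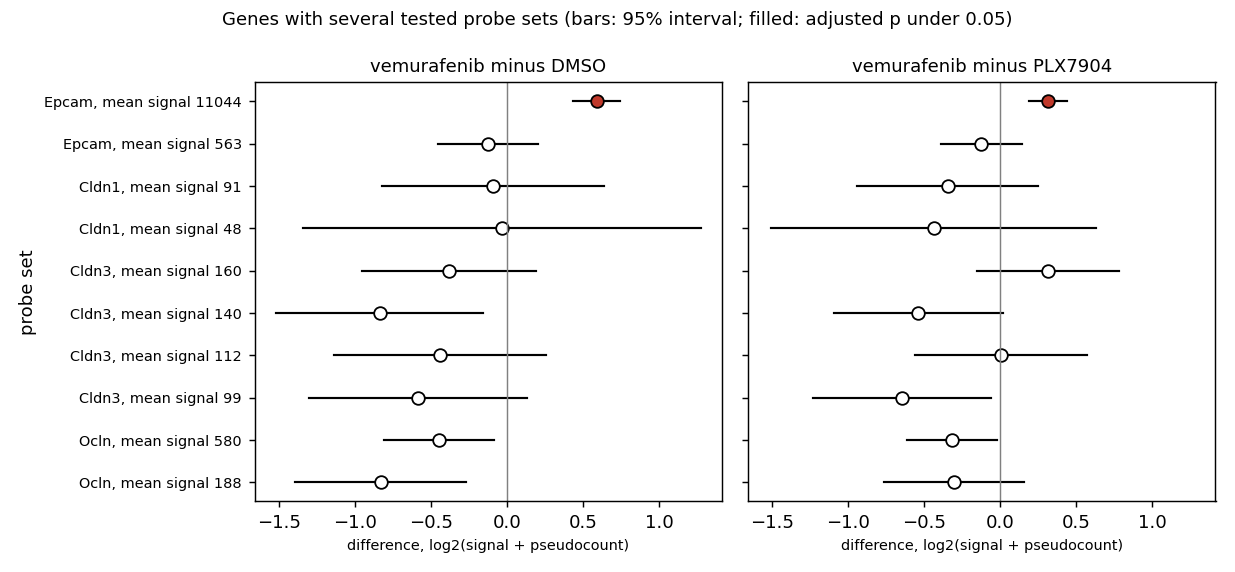
Log2 differences for every tested probe set of Epcam, Cldn1, Cldn3 and Ocln, the members with more than 1, labelled by mean signal. Points are estimates, bars are 95% intervals and filled points had an adjusted p under 0.05 over all 19755 probe sets. The bright Epcam probe set is filled in both panels and the dim one is not, and the 4 Cldn3 probe sets lie on both sides of 0 against PLX7904.

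Fitted over all probe sets, 14 of the 18 were tested, and 1 passed as higher and 0 as lower with vemurafenib than with DMSO, the bright Epcam set. Of all probe sets 3.74% were higher and 3.41% lower, 7.15% in either direction. Against PLX7904 the bright Epcam set and the Cldn4 set passed as higher, 2 of the 14, and 0 as lower. Of all probe sets 4.63% were higher and 4.54% lower, 9.17% in either direction.

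Partners of these genes were counted from lists chosen by function. Of 12 tested cadherin-catenin and nectin genes, 1 passed as higher and 0 as lower with vemurafenib than with DMSO, and 3 and 0 against PLX7904, with median log2 differences of 0.06 and 0.22 beside -0.05 and -0.04 for all genes. Among all genes 5.43% were higher and 5.21% lower than with DMSO, and 6.43% and 6.87% than with PLX7904. Ctnna1, alpha-catenin, which links the cadherin complex to actin, read 17419 and 16282 with vemurafenib, 13260 and 13793 with PLX7904 and 12994 with DMSO. It was 1.30-fold higher than with DMSO (95% interval 1.16 to 1.44, limma adjusted p = 0.00829) and 1.25-fold higher than with PLX7904 (1.14 to 1.36, 0.00556). A second bright Ctnna1 probe set was 0.14 higher than DMSO on the log2 scale and did not pass (limma adjusted p = 0.282 over probe sets), while its difference of 0.24 from PLX7904 passed (0.0309). The folds of Ctnna1 were read from a probe set of suffix x. Its calls ended in both comparisons when all its probe sets were averaged. That against DMSO also ended without probe sets of suffix x, s or a.

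The nectin gene Nectin1, an adhesion receptor that recruits cadherins, read 252 and 202 with vemurafenib, 99.5 and 126 with PLX7904 and 122 with DMSO. It was 1.99-fold higher with vemurafenib than with PLX7904 (95% interval 1.42 to 2.78, limma adjusted p = 0.0144). That call ended without vemurafenib replicate 1 or without PLX7904 replicate 1. Pvr, a nectin-like receptor, was 1.46-fold higher (1.24 to 1.73, 0.00916). Both calls ended when all probe sets of the gene were averaged. Ctnnb1, beta-catenin, lay 0.16 above DMSO (adjusted p = 0.142, limma) and Ctnnd1, p120-catenin, 0.12 below it (0.567), and neither passed. Cdh2, the N-cadherin gene, had a mean signal of 6.47 and was not tested.

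Of 13 other claudins, 3 were bright enough to be tested, with medians of 0.28 against DMSO and 0.12 against PLX7904. Cldn12, a claudin without the usual binding site for scaffold proteins, was 1.24-fold higher with vemurafenib than with DMSO (95% interval 1.11 to 1.40, limma adjusted p = 0.0255) and 1.16-fold higher than with PLX7904 (1.05 to 1.28, 0.0458). These calls were among the less stable, passing under 9 of 16 and 8 of 17 alternatives, and both ended without vemurafenib replicate 1 and without replicate 2. Cldn15 and Cldn23 did not pass.

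Of 12 other membrane and scaffold genes of the tight junction, 2 passed as higher and 0 as lower with vemurafenib than with DMSO, and 1 and 0 against PLX7904, with medians of 0.23 and 0.13. The shares of all genes called higher were 5.43% and 6.43%. Jam2, a junctional adhesion molecule of the immunoglobulin superfamily, read 3784 and 3895 with vemurafenib, 2344 and 2224 with PLX7904 and 2008 with DMSO. The vemurafenib arrays lay above all others, 1.91-fold over DMSO (95% interval 1.66 to 2.20, limma adjusted p = 0.000187) and 1.68-fold over PLX7904 (1.50 to 1.88, 0.000191). Of its 5 tested probe sets, all lay above 0 in both comparisons. Magi1, a scaffold of junctions, was 1.67-fold higher than with DMSO (1.29 to 2.17, 0.0207), but its 2 dimmer probe sets lay below 0 at log2 -0.36 and -0.27. The call of Magi1 ended without vemurafenib replicate 1. On its brightest probe set PLX7904 lay 0.56 above DMSO on the log2 scale and vemurafenib 0.18 above PLX7904, and neither difference passed.

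Of 14 apical polarity genes, whose complexes position the tight junction, 2 passed as higher and 1 as lower with vemurafenib than with DMSO, and 3 and 1 against PLX7904, with medians of -0.01 and -0.01. The shares of all genes called in either direction were 10.6% and 13.3%. Pard6b, a subunit of the PAR complex, read 694 and 597 with vemurafenib, 354 and 294 with PLX7904 and 378 with DMSO. It was 1.69-fold higher than with DMSO (95% interval 1.31 to 2.19, limma adjusted p = 0.0181) and 1.98-fold higher than with PLX7904 (1.60 to 2.45, 0.00131). Crb3, an apical membrane protein of the Crumbs complex, read 555 and 542 with vemurafenib, 313 and 296 with PLX7904 and 330.4 with DMSO. It was 1.65-fold higher than with DMSO (1.32 to 2.08, 0.0125) and 1.79-fold higher than with PLX7904 (1.49 to 2.16, 0.00167). For Pard6b and Crb3 the vemurafenib arrays lay above all others and DMSO above both PLX7904 arrays on the brightest probe set, the order seen for Cldn4. On another tested probe set of each gene PLX7904 lay above DMSO, by 0.29 on the log2 scale for Pard6b and by 0.11 for Crb3. The call of Crb3 against DMSO ended when its probe sets were averaged, and both of its calls ended without probe sets of suffix x, s or a.

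Patj, a scaffold of the Crumbs complex, was 1.37-fold higher with vemurafenib than with PLX7904 (limma adjusted p = 0.0459) on its brightest probe set. That call ended without vemurafenib replicate 1 or PLX7904 replicate 1, and when its probe sets were averaged. The other tested Patj probe set, with a mean signal of 337, lay 0.016 above PLX7904 on the log2 scale (95% interval -0.29 to 0.32). Prkci, the atypical protein kinase C of the PAR complex, was 1.24 times lower with vemurafenib than with DMSO (95% interval 1.08 to 1.42, limma adjusted p = 0.0498) and 1.22 times lower than with PLX7904 (1.09 to 1.37, 0.0249). Its first call passed under 7 of 16 alternatives and the second under 10 of 17. Both ended with median centring and without vemurafenib replicate 1 or replicate 2, and the second also without PLX7904 replicate 1. The folds of Prkci were read from a probe set of suffix s. Both calls ended without probe sets of suffix x, s or a, and when its probe sets were averaged. The other tested Prkci probe set, with a mean signal of 101, lay 0.11 above DMSO on the log2 scale (-0.73 to 0.95). It lay 0.27 below PLX7904 (-0.96 to 0.42).

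**Figure D4:**
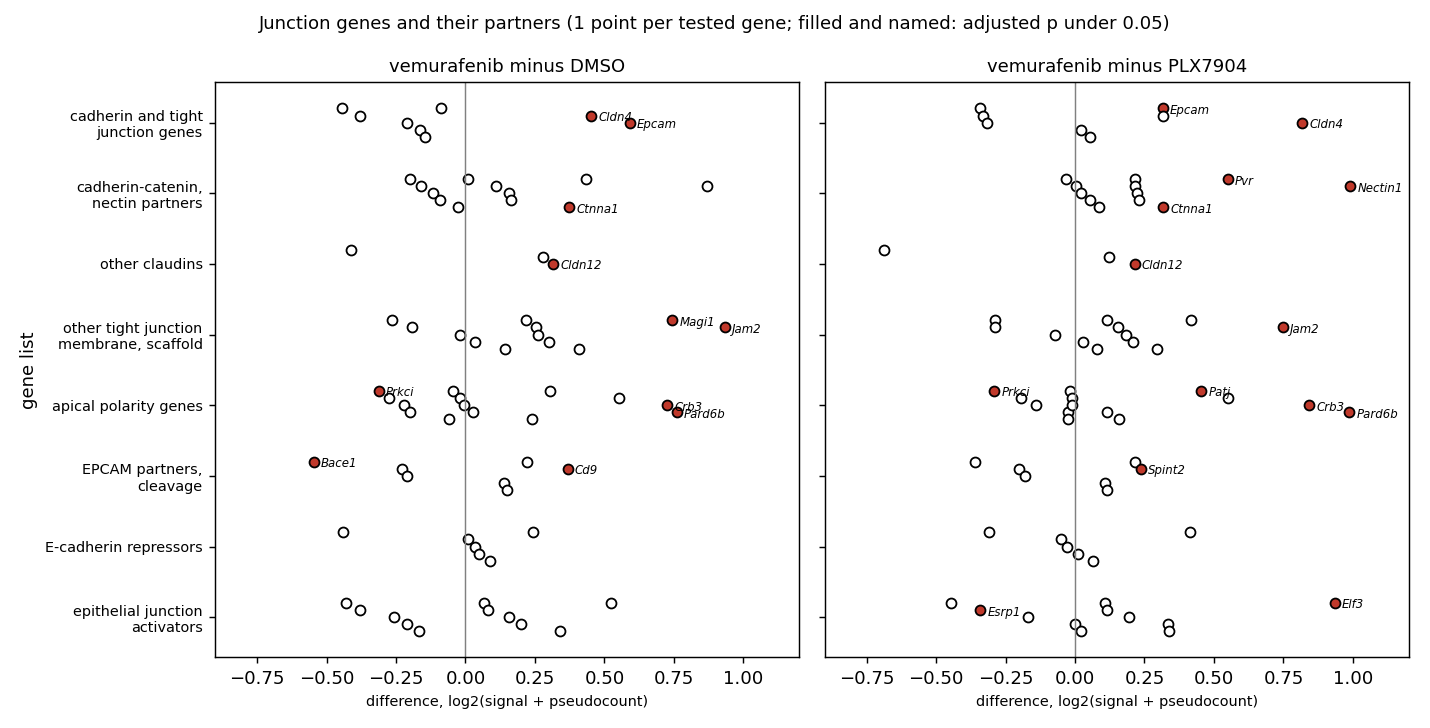
Log2 differences of every tested gene in the junction lists, 1 point per gene, with vemurafenib against DMSO on the left and against PLX7904 on the right. Filled, named points had an adjusted p under 0.05 over all genes. Jam2, Crb3 and Pard6b are filled and lie far to the right in both panels. Epcam and Cldn4 are also filled in both, with Epcam nearer to 0 than Cldn4 against PLX7904. No E-cadherin repressor is filled.

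The medians of 7 tested partners and proteases of EPCAM were 0.14 against DMSO and 0.11 against PLX7904. Among all genes, 10.6% and 13.3% passed in either direction in these comparisons. Of the 7, 1 passed as higher and 1 as lower with vemurafenib than with DMSO. Cd9, a tetraspanin that associates with EPCAM, was 1.29-fold higher (95% interval 1.17 to 1.42, limma adjusted p = 0.00524). Bace1, a protease that can cleave EPCAM, was 1.46 times lower (1.19 to 1.80, 0.0291), a call that ended after quantile normalization, median centring or cyclic loess and without vemurafenib replicate 2. Against PLX7904, 1 passed as higher and 0 as lower, the protease inhibitor Spint2 (1.18-fold, 1.07 to 1.30, 0.0306). Its call ended without vemurafenib replicate 1, vemurafenib replicate 2 or PLX7904 replicate 2. For Cd9, PLX7904 lay 0.25 above DMSO on the log2 scale and vemurafenib 0.11 above PLX7904, and neither difference passed.

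Of 6 tested repressors of E-cadherin, 0 passed in either comparison, with medians of 0.04 against DMSO and -0.01 against PLX7904, while 10.6% and 13.3% of all genes passed. Snai2, a repressor of the Snail family, lay 0.09 above DMSO (95% interval -0.07 to 0.25) and 0.01 above PLX7904 (-0.12 to 0.14) on the log2 scale. Zeb1 was dim and its difference of 0.24 from DMSO had an interval of -0.79 to 1.27. Of 11 tested transcription and splicing factors that maintain epithelial junctions, 0 passed against DMSO (median 0.07), while 1 was higher and 1 lower with vemurafenib than with PLX7904 (median 0.11). Elf3, an epithelial ETS factor, read 546 and 507 with vemurafenib, 252 and 297 with PLX7904 and 364 with DMSO, and was 1.91-fold higher than with PLX7904 (1.55 to 2.35, limma adjusted p = 0.00167). Esrp1, an epithelial splicing factor, was 1.27 times lower (1.09 to 1.47, 0.0422). It no longer passed with median centring, or without vemurafenib replicate 1, PLX7904 replicate 1 or PLX7904 replicate 2.

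The genes whose profile over the 5 arrays was nearest to Epcam, by Euclidean distance of centred log2 values, were Cd160 (distance 0.0587) and Vim (0.060). Vim, the intermediate filament gene vimentin, was 0.61 higher with vemurafenib than with DMSO and 0.25 higher with PLX7904 than with DMSO, and Cd160 was dim, at a mean signal of 48.2. Nearest to Cldn4 were Csrnp1 (0.142), a nuclear protein gene, and Il1a (0.177), the cytokine interleukin-1 alpha. Il1a was 0.44 higher with vemurafenib and lay at -0.32 with PLX7904, each relative to DMSO on the log2 scale. With 5 arrays such likeness is a description.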

How the data were processed

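The authors deposited 1 linear signal intensity per array for 45101 probe sets, computed with MAS5 per the submitters' processing notes, where its version is not given. The trimmed mean of every array was 500.0. No detection calls were used. Genes were named from the platform annotation, and probe sets with several symbols, with none, or used as controls were left out. Each gene was read from its brightest probe set, by the mean of the 3 group means. The log2 of signal plus 3.34 (the 10th percentile of all values) was fitted over the 10852 genes whose mean reached 47.4 (the median of all values), and again over 19755 probe sets, with limma 3.58.1 in R 4.3.3 (3 group means, eBayes with an intensity trend, 2 residual and 8.27 prior degrees of freedom). Folds are on that scale and understate changes of dim genes. Tests were two-sided and adjusted by Benjamini-Hochberg over all features. The adjustment was made within each of the 3 comparisons, and none was made across them. The DMSO array takes its variance from the treated groups, and the number of arrays limits the precision. The fit was tested on simulated data. Members and lists were chosen with earlier results of these data known. Named partners are those that passed, plus Ctnnb1, Ctnnd1, Snai2 and Zeb1. Cdh2, Cldn15 and Cldn23 and the cell type markers given by name were named after their values were seen. Likeness was taken for members that passed, 2 genes each. Alternatives covered pseudocount, filter, normalization, variance model, probe sets, replicate block, the treated arrays alone and leaving out each treated array. Figures used Python 3.11.15 and matplotlib 3.10.9.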

Additional observations from a re-analysis of the deposited data

How the results depend on the processing

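Of 374 recomputed differences of the tested member genes, most of them differences that had not passed, 352 kept their direction and side of the threshold. The Epcam call passed under 13 of 15 alternatives against DMSO and 14 of 16 against PLX7904. That of Cldn4 passed under 11 of 16 and 16 of 17. Without limma's intensity trend the counts called fell to 43 and 35 genes for vemurafenib against DMSO and PLX7904 (main 1154 and 1443) and to 0 and 0 probe sets (main 1413 and 1812). No member was then called (0 genes and 0 probe sets), with Epcam at adjusted p = 0.0929 and 0.128 and Cldn4 at 0.155 and 0.0609. Averaging all probe sets gave 443 and 660 genes, with 0 and 1 members. Without the filter on signal 657 genes were called against DMSO, with 1 member, and 743 and 1099 probe sets. Without probe sets of suffix x, s or a, which include the bright Epcam set, 1 member gene passed in each comparison, with 0 and 1 member probe sets. A member probe set more, 2 in all, passed against DMSO with the filter at the 75th percentile, with median centring or with the replicate block. For PLX7904 against DMSO the count of 0 became 3 genes with the filter at the 75th percentile, 3 with robust fitting, 3 genes and 2 probe sets without those suffixes, 5 genes with median centring, and 4 genes and 7 probe sets with the replicate block. No member was among them. Median centring moved the median of all genes to 0.10 against DMSO and 0.11 against PLX7904. The split of higher and lower calls became 792 and 227 (main 589 and 565) against DMSO and 1225 and 307 (main 698 and 745) against PLX7904. Leaving out 1 treated array gave 1 to 2 member genes and 1 to 2 member probe sets against DMSO. Between the compounds it gave 900 to 1288 genes, fewest without vemurafenib replicate 1, and 1042 to 1903 probe sets, fewest without PLX7904 replicate 2. For PLX7904 against DMSO it gave 0 to 29 genes and 0 to 91 probe sets, most without vemurafenib replicate 1 and nearly as many without replicate 2 (27 and 81).

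Signs that turned belonged to differences that did not pass. Against DMSO these were Cldn1 with quantile normalization (0.0955 and 0.0905 for its 2 probe sets), median centring (0.0611 and 0.120) and cyclic loess (0.0749 and 0.136), and Cdh3 (0.00296) and the dim Epcam set (0.0280) with median centring. Against PLX7904 the dim Epcam set was 0.0233 with median centring, and Cldn3 -0.215 with the mean of all probe sets. For PLX7904 against DMSO the dim Epcam set was -0.0714 with the replicate block. Leaving out 1 treated array gave Cldn1 -0.18 to 0.0023 and its second set -0.58 to 0.52 against DMSO. Between the compounds it gave Tjp1 -0.031 to 0.14, Cdh1 -0.10 to 0.14, the second Cldn1 set -0.99 to 0.11 and a Cldn3 set -0.20 to 0.22. For PLX7904 against DMSO it gave Cdh3 -0.038 to 0.40, Ocln -0.28 to 0.020, a Cldn3 set -0.080 to 0.21 and the dim Epcam set -0.048 to 0.050. The cause of these changes was not tested. Replicate numbers are only names: differences between replicates 1 and 2 correlated at r = -0.0071 between the compounds, and with the replicate block Epcam and Cldn4 passed as before. Low signal left 4 of the 18 member probe sets, the only one of Cldn7 among them, without a test.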
